A study of Mus musculus with 4 samples.

Results

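The genes described here are the 47 expressed genes at the start of mouse chromosome 6. They were chosen by position and level: genes of the deposited count table whose start lies from 0 to under 25 Mb on chromosome 6 of GRCm38 (mm10) and whose raw count averaged at least 10 per library. The interval itself was drawn on the fold changes between the genotypes in these same libraries, so the difference between the genotypes in these genes is given below as a description, and counts of these genes past a threshold support nothing. The count table lists 24116 genes, of which 99 start in the interval. Of these 99 genes, 26 had no count in any library, 20 had a mean above 0 and under 10, and 53 reached 10. Another 6 of the 53 were left out by name, namely genes of an imprinted cluster and their neighbours and genes with symbols starting with Nduf. This leaves 46 protein-coding genes and 1 long non-coding RNA.

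RNA-seq libraries were made from mouse embryonic stem cells (ESCs) of the C57BL/6 strain, 2 from wild-type (WT) cells of the line N12 and 2 from Terc-/- cells of the line F35. G3 stands for the third generation of mice lacking Terc, the RNA template of telomerase, and the titles of the WT libraries carry "G3" as well while their genotype label reads wild type. Both lines grew on feeder cells in medium with serum and leukemia inhibitory factor, and poly(A) RNA was sequenced. With 1 line for each genotype, genotype and line cannot be told apart, and the study's methods call the libraries of a line biological replicates without saying what was replicated.

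The depth on genes was 22057607 and 22520017 counts in the WT libraries, and the G3 Terc-/- libraries held 21898081 and 18047995. Reads of Terc were few in WT (7 and 2) and absent from the G3 Terc-/- libraries, and a count of 0 leaves room for 3. All 12 pluripotency markers examined were expressed in every library, with a summed level of 6472 and 6588 CPM in WT and of 7990 and 8334 CPM in G3 Terc-/- libraries, and Dppa5a was the most abundant of them in WT. Of the 10 on other chromosomes, 8 rose and 2 fell at an adjusted p-value under 0.05 in edgeR's quasi-likelihood test, where 21.7% and 21.8% of all tested genes did. Nanog and Dppa3, which lie on chromosome 6, had log2 fold changes of 1.13 and -1.22. CPM are counts scaled to a common library total, here after TMM normalization, which sets the libraries so that the bulk of genes keeps the same level.

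Mouse chromosomes have their centromere at one end, and position 0 of chromosome 6 lies at that end. The genes of this stretch include subunits of complexes whose other parts are encoded elsewhere, such as replication protein A, the proteasome and the actin capping protein, together with metabolic enzymes, trafficking proteins, the receptor tyrosine kinase Met and genes that are known from fibroblasts, such as Col1a2 and Cav1. A subunit that is made in excess of its partners is often degraded, which is why the partners are listed below beside the genes themselves.

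Promoter windows are shown first for 5 genes that stand for the range of what follows: Asns, the most abundant of the 47 per length, Rpa3 and Umad1, which lie back to back, Fam3c, which had the lowest fold change where counts were high, and Col1a2, which was not lower in G3 Terc-/- cells. Sequences are from RefSeq (GRCm38.p6), 250 bases before to 50 bases after the annotated start, read 5′ to 3′ on the strand of the gene. Capitals mark matches on either strand to the TATA box (letters TATAAA), the CCAAT box, the GC box (letters GGGCGG), the palindromic NRF1 motif or an ATF4 motif (letters TGATGNAA), and no matches overlapped in these 5 windows.
Asns (chr6:7693160-7693459, strand minus): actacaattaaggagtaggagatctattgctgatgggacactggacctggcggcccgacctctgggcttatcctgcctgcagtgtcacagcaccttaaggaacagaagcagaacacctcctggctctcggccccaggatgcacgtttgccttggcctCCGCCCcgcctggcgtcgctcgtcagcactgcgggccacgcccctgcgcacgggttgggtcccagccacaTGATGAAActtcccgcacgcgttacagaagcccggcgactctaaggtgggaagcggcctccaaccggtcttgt
Rpa3 (chr6:8259092-8259391, strand minus): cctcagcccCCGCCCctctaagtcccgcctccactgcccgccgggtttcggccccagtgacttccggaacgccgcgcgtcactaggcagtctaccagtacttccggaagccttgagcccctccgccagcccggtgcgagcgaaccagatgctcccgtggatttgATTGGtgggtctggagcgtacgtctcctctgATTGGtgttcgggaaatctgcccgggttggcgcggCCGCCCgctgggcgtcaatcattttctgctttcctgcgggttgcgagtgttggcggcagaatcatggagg
Umad1 (chr6:8259038-8259337, strand plus): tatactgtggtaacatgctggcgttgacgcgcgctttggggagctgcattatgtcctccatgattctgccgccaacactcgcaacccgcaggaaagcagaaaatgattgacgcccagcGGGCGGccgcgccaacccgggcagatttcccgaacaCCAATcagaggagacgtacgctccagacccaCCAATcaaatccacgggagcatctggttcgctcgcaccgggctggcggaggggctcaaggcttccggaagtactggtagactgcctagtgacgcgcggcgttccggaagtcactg
Fam3c (chr6:22356032-22356331, strand minus): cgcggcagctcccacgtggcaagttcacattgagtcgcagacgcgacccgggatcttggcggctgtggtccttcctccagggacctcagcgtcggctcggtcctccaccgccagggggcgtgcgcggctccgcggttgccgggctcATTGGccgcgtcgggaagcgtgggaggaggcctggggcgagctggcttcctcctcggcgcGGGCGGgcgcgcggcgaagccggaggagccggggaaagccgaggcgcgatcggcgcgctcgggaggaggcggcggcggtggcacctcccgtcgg
Col1a2 (chr6:4505368-4505667, strand plus): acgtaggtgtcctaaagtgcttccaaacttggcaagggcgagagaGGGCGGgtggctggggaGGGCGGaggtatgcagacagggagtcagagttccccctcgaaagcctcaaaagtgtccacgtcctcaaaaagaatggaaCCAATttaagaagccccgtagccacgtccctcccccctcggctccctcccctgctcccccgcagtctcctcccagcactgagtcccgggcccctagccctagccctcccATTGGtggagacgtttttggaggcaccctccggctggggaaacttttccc

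RefSeq had such a window for 46 of the 47 genes, all but Gng11, and for 27025 genes in all, of which 11585 were tested for expression. A GC box was found in 35 windows of the interval (76.1%), against 64% of the windows of all tested genes and 35.9% of all windows. The CCAAT box was found in 37% of the windows of the interval, in 38.9% of those of tested genes and in 37.9% of all. A TATA box was found in 7 windows (15.2%), those of Cav1, Ica1, Sdhaf3, Sem1, St7, Tmem168 and Tspan12, against 7.16% of the windows of tested genes and 14.2% of all. The NRF1 motif was in none of the 46 windows and in 1.93% of those of tested genes. The ATF4 motif was in the windows of Asns and Mdfic only, 4.35% of the interval against 2.27% of tested genes and 4.06% of all windows. The median GC content was 60.33% in the interval and 60.67% over tested genes, and the median number of CpG was 18.5 and 20. A window can stand at an internal start of a gene: 28 of the 46 lay at the 5′ end of the gene model, the 5 printed ones among them, and those of Cadps2, Casd1, Cttnbp2, Met and Tspan12 lay more than 300 bases inside it. Over windows at the 5′ end alone, the shares in the interval and in tested genes were 75% and 63.2% for the GC box, 50% and 40.7% for the CCAAT box and 10.7% and 8.22% for the TATA box. A match is a description of the letters and not a binding site.

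The level of the interval as a whole was lower in G3 Terc-/- cells. The 47 genes summed to 1420 and 1428 CPM in the WT libraries and to 808 and 804 CPM in the G3 Terc-/- libraries, which is 56.6% of the WT level. The replicates of a genotype lay close together and the genotypes did not overlap. Asns alone held 25.3% and 25.5% of that sum in WT against 30.3% and 30.9% in the G3 Terc-/- libraries, and without Asns the remaining genes summed to 52.7% of the WT level. Without Col1a2 the sum was 54.9% of the WT level, and without Asns, Slc25a13 and Capza2 together it was 55.8%. In these bulk libraries, fewer cells of a type and less RNA per cell cannot be told apart. From exome sequencing, the study reports that part of the chromosome holding this interval was lost in Terc-/- ESCs of this generation. Its text gives neither the bounds of the lost part nor the name of the line. DNA copy number was not tested here.

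Gene by gene, 46 of the 47 passed the filter on low counts and entered the fit over 14896 genes, and Tmem229a did not. The log2 fold change, G3 Terc-/- minus WT, was negative for 39 and positive for 7 of the 46 genes. Its median was -0.88, with quartiles of -1.03 and -0.50, while the median of all tested genes was 0.01 with quartiles of -0.21 and 0.25. Of the 46 genes, 15 were lower at a fold change of 2 and an unadjusted P under 0.05, the study's cutoffs for genes, which 3.13% of all tested genes also were. At an adjusted p-value under 0.05, 34 were lower, against 21.8% of all tested genes, and none was higher, against 21.7%. Only Samd9l was higher at an unadjusted P under 0.05, and DESeq2 called no gene of the interval higher. Both G3 Terc-/- libraries lay below both WT libraries in 38 of the 47 genes, against 34.9% of all tested genes, and above them in Samd9l alone, against 35.5%. Since the interval was drawn on this contrast, nothing is read from these counts.

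**Figure D1:**
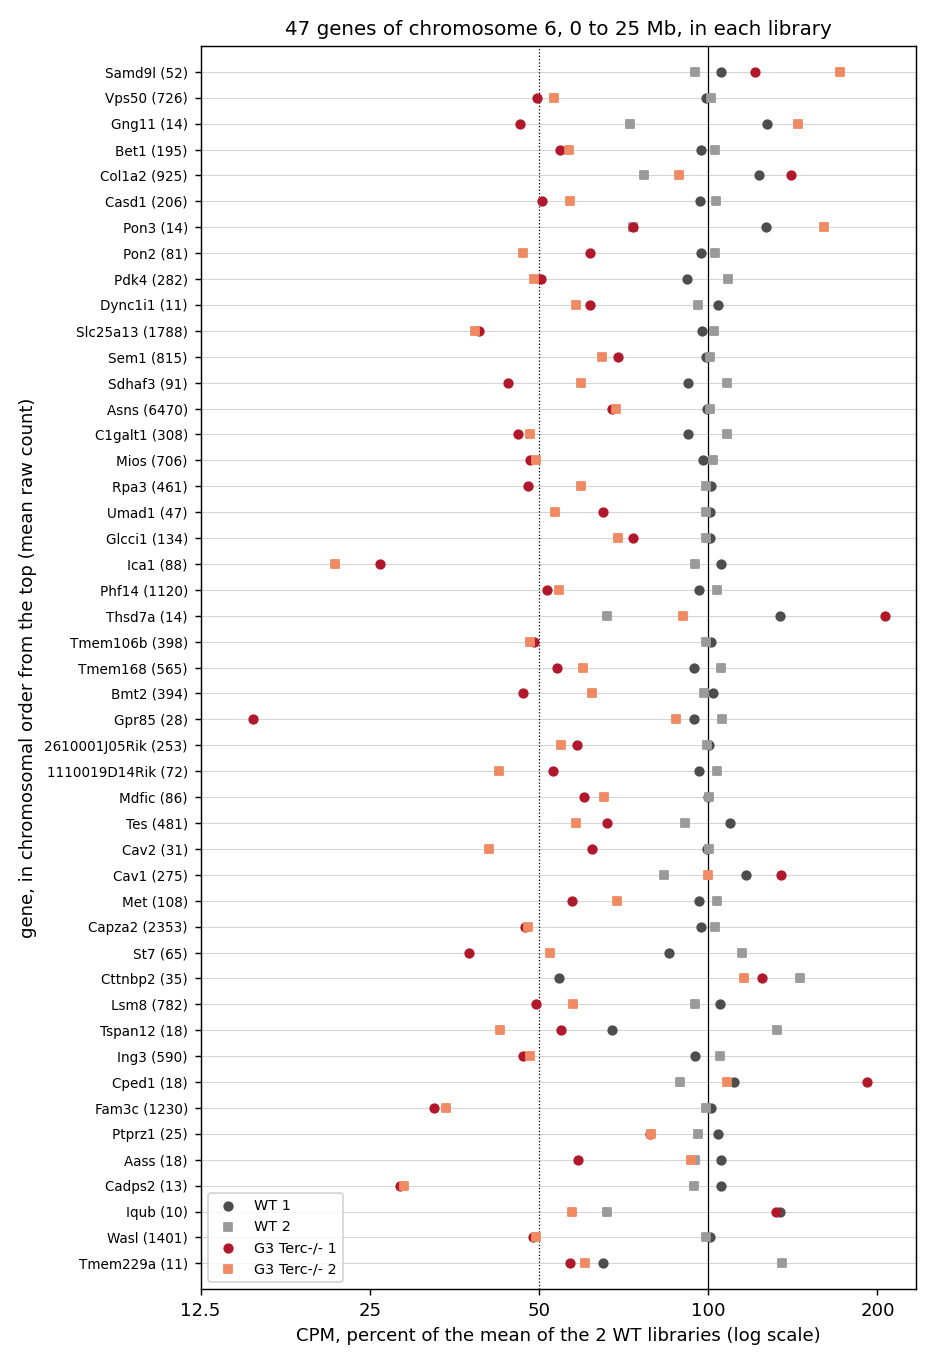
CPM of each of the 47 genes in each of the 4 libraries, as percent of the mean of the 2 WT libraries on a log scale, in chromosomal order, with the mean raw count in brackets. In 38 genes both G3 Terc-/- points (red and orange) lie left of both WT points (grey), many near the dotted line at 50%, and in Samd9l alone both lie to the right.

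Expressed as a share of the WT level, 26 of the 47 genes had between 40% and 60% in G3 Terc-/- cells, a range that held 4.32% of all tested genes, and the median gene had 54.6%. Another 4 genes, Ica1, Cadps2, Fam3c and Slc25a13, had under 40%. Between 60% and 100% lay 10 genes, namely Sem1, Asns, Glcci1, Mdfic, Tes, Met, Ptprz1, Aass, Gng11 and Iqub, and 7 genes had more than in WT. Among the 13 with means of 500 counts or more, the standard errors (SE) of the log2 fold change were between 0.05 and 0.13, and the fold changes had an SD of 0.43.

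The number of counts set how well a gene could be placed. The 13 genes with at least 500 counts had a median log2 fold change of -0.96, from -1.59 (Fam3c) to 0.21 (Col1a2), and 12 of them were negative. In the 12 genes with 100 to under 500 counts the median was -0.87, from -1.09 (C1galt1) to 0.24 (Cav1). In the 7 genes with 50 to under 100 counts it was -0.97, from -2.05 (Ica1) to 0.53 (Samd9l). The 14 tested genes with 10 to under 50 counts had a median of -0.38 and a median SE of 0.42, with an SD of 0.69 over the genes.

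**Figure D2:**
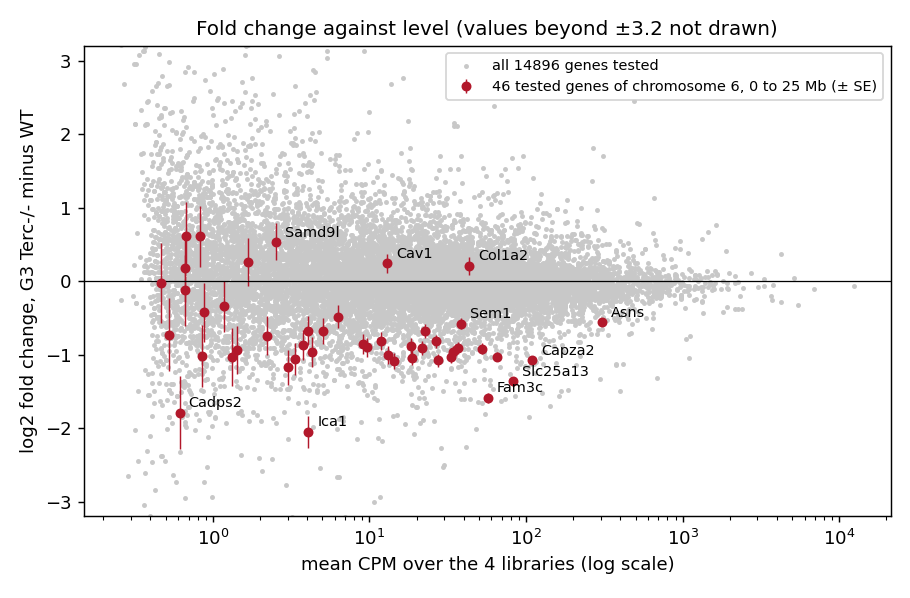
Log2 fold change, G3 Terc-/- minus WT, against the mean CPM over the 4 libraries (log scale), for the 46 tested genes of the interval (red, with SE) and all 14896 tested genes (grey). The red points gather between about the values of Sem1 (-0.58) and Capza2 (-1.08), with Fam3c, Slc25a13 and Ica1 below and Col1a2, Cav1 and Samd9l above 0.

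Along the interval the lower level was found in every 5 Mb step. The median log2 fold change was -0.49 for the 6 genes from 0 to 5 Mb, -0.89 for the 14 from 5 to 10 Mb, -0.90 for the 8 from 10 to 15 Mb, -0.68 for the 9 from 15 to 20 Mb and -1.02 for the 9 from 20 to 25 Mb. Each step held at least 1 gene with a positive fold change, and the first and the fourth held 2. In the next stretch of the same chromosome, from 25 to 45 Mb, the 96 tested genes had a median of -0.05 and 54 of them were negative. From 45 to 80 Mb the median over 125 tested genes was -0.90, and 118 were negative. The 14205 tested genes of the other chromosomes had a median of 0.01. These stretches were set on the same fold changes and their differences were not tested.

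The border at 25 Mb fell between genes of both kinds. Just inside it lay Iqub (log2 fold change -0.03 ± 0.54, SE), Wasl (-1.03 ± 0.07) and Tmem229a, with 9 and 19 counts in WT against 8 and 7 in the G3 Terc-/- libraries. Just outside lay Pot1a (-1.18 ± 0.08), a protein of the telomere cap, Grm8 (0.95 ± 0.47), a glutamate receptor, and Zfp800 (0.44 ± 0.11), a zinc finger gene. On the count threshold, Iqub, Tmem229a and Dync1i1 were just above a mean of 10, at 10, 10.8 and 11.3 counts. Just under it were the calcitonin receptor gene Calcr (5 and 9 counts in WT, 16 and 5 in G3 Terc-/-), the chloride channel gene Cftr (17 and 15 in WT, 3 and 0 in G3 Terc-/-) and the protease inhibitor gene Tfpi2 (5 and 9 in WT, 6 in both G3 Terc-/- libraries).

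Among genes of DNA and RNA machinery, Rpa3 (chr6:8255936-8259141) encodes the smallest subunit of replication protein A, which coats single-stranded DNA. It had 28.4 and 27.9 CPM in WT and 13.5 and 16.7 CPM in G3 Terc-/- libraries, 53.6% of the WT level. Lsm8 (chr6:18848635-18854052), a subunit of the ring that binds the tail of U6 RNA in the nucleus, had 50.2 and 45.4 CPM in WT and 23.6 and 27.5 CPM in G3 Terc-/- libraries. In both genes each G3 Terc-/- library was below each WT library, and both had a log2 fold change of -0.91. Phf14 (chr6:11907725-12100156), a chromatin protein with PHD fingers, had 65.9 and 71.1 CPM in WT and 35.4 and 37.2 CPM in G3 Terc-/- libraries. Ing3 (chr6:21949571-21976038), a subunit of the TIP60 histone acetyltransferase complex that binds methylated histone H3, had 35.4 and 39.2 CPM in WT and 17.5 and 17.98 CPM in G3 Terc-/- libraries, 47.4% of the WT level. Sem1 (chr6:6558275-6578658), a small protein of the proteasome lid that also binds BRCA2, stood higher than these: it had 45.4 and 46.2 CPM in WT and 31.7 and 29.7 CPM in G3 Terc-/- libraries, 66.9% of the WT level.

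Rpa3 and the little-known gene Umad1 are transcribed away from each other with 146 bases between them, and the windows printed above overlap. Umad1 had 2.79 and 2.75 CPM in WT and 1.80 and 1.48 CPM in G3 Terc-/- libraries, a log2 fold change of -0.74 ± 0.26 (SE) beside -0.91 ± 0.10 for Rpa3. A second such pair, the uncharacterised gene 2610001J05Rik and the long non-coding RNA 1110019D14Rik, lies 50 bases apart. Their log2 fold changes were -0.82 ± 0.12 and -1.06 ± 0.22.

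Amino acid supply and its sensing were represented by Asns, Mios and Bmt2. Asns (chr6:7675165-7693209), asparagine synthetase, whose window above holds the ATF4 letters, had the highest level per length of the 47 genes, 132 CPM per kb of exon in WT and 90.0 in G3 Terc-/- cells, while Slc25a13, the next in WT, had 31.5 and 12.2 CPM per kb and Rpa3, the next in G3 Terc-/- cells, 24.8 and 13.3 CPM per kb. Asns had 359.7 and 365 CPM in WT and 245 and 248 CPM in G3 Terc-/- libraries, 68.0% of the WT level, with a log2 fold change of -0.56 ± 0.05 (SE). Each G3 Terc-/- library was thus below each WT library, but by less than in most genes of the interval. Mios (chr6:8209111-8240573), a subunit of GATOR2, which relays amino acid supply to the kinase mTORC1, had 43.4 and 45.2 CPM in WT and 21.3 and 21.9 CPM in G3 Terc-/- libraries. Bmt2, the sensor of S-adenosylmethionine in the same pathway, had 24.4 and 23.5 CPM in WT and 11.2 and 14.9 CPM in G3 Terc-/- libraries.

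Of the mitochondrial and metabolic genes, Slc25a13 (chr6:6041218-6217304), a carrier of aspartate and glutamate in the mitochondrial inner membrane, had 117 and 123 CPM in WT and 46.9 and 46.0 CPM in G3 Terc-/- libraries, 38.8% of the WT level. Its log2 fold change of -1.37 ± 0.06 (SE) stood beside a median of -0.88 over the interval. Pdk4 (chr6:5483351-5496278), a kinase that switches off pyruvate dehydrogenase, had 16.1 and 19.1 CPM in WT and 8.88 and 8.61 CPM in G3 Terc-/- libraries. Sdhaf3, an assembly factor of succinate dehydrogenase, had 5.17 and 6.09 CPM in WT and 2.48 and 3.34 CPM in G3 Terc-/- libraries. Pon2, a paraoxonase that protects against oxidation, had 54.2% of its WT level. Its neighbour Pon3 had 10 to 18 counts in every library and its groups overlapped. Aass, which starts the breakdown of lysine, had 13 to 23 counts and a log2 fold change of -0.42 ± 0.40. That value was -0.10 without the first G3 Terc-/- library and -0.76 without the second. Of the glycan enzymes, C1galt1, which builds the core of O-linked glycans, had 47.1% and Casd1, which acetylates sialic acid, had 53.7% of the WT level.

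Capza2, Wasl and Tes act on the actin cytoskeleton. Capza2 (chr6:17637010-17666972), an alpha subunit of the protein that caps actin filaments, had 145 and 153 CPM in WT and 70.3 and 71.1 CPM in G3 Terc-/- libraries, 47.4% of the WT level. Wasl (chr6:24613810-24664995), N-WASP, which activates the Arp2/3 complex, had 88.6 and 87.0 CPM in WT and 42.9 and 43.3 CPM in G3 Terc-/- libraries. Tes, a protein of focal adhesions, had 30.4 and 25.3 CPM in WT and 18.4 and 16.2 CPM in G3 Terc-/- libraries, 62.1% of the WT level. Replicates of Capza2 and Wasl differed by far less than the genotypes, and Tes was lower in both G3 Terc-/- libraries by a smaller margin.

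Of the genes of membrane traffic and secretion, Ica1, Cadps2 and Fam3c had the lowest log2 fold changes of the interval. The others named here lay nearer its median. Fam3c (chr6:22306520-22356081), a secreted cytokine-like protein, had 86.6 and 84.7 CPM in WT and 27.8 and 29.3 CPM in G3 Terc-/- libraries, 33.3% of the WT level. Ica1 (chr6:8630527-8778540), a protein of secretory vesicles, had 6.91 and 6.22 CPM in WT and 1.71 and 1.43 CPM in G3 Terc-/- libraries, with the lowest log2 fold change of the 46 genes (-2.05 ± 0.22, SE). Cadps2, which primes dense-core vesicles for release, had 22 and 20 counts in WT against 6 and 5 in the G3 Terc-/- libraries. All 3 had G3 Terc-/- values well below the WT values, the last on few counts. Vps50, a subunit of a complex that tethers endosomal vesicles, had 44.4 and 45.4 CPM in WT and 22.3 and 23.8 CPM in G3 Terc-/- libraries. Tmem106b, a lysosomal membrane protein, had 48.6% of its WT level, and Bet1, a SNARE protein of transport from the endoplasmic reticulum to the Golgi, had 55.5%. Dync1i1, a dynein intermediate chain, had only 7 to 15 counts, and its log2 fold change of -0.73 had an SE of 0.50.

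Among receptors and signalling genes, Met (chr6:17463349-17573980), the receptor of hepatocyte growth factor, had 6.00 and 6.45 CPM in WT and 3.56 and 4.28 CPM in G3 Terc-/- libraries, 63.0% of the WT level. Glcci1 had 71.4% and Mdfic, an inhibitor of MyoD family factors, 62.7% of the WT level, while St7 had 44.9%. Gpr85, an orphan receptor, had 36 and 41 counts in WT but 6 and 28 in the G3 Terc-/- libraries, so that its log2 fold change of -1.03 was -0.19 without the first and -2.66 without the second of these. Tspan12, a tetraspanin of Norrin signalling, had 17 and 34 counts in WT against 14 and 9 in the G3 Terc-/- libraries, and its log2 fold change of -1.02 was -0.45 without the second WT library. Gng11, Ptprz1 and Cttnbp2, a G protein subunit, a receptor phosphatase and a cortactin-binding protein, had means of 13.8, 25 and 35.3 counts and log2 fold changes of -0.13 ± 0.49, -0.34 ± 0.35 and 0.26 ± 0.33. Of the remaining genes with little known function, Tmem168 had 56.9% of its WT level over a mean of 565 counts, and Iqub had 5 to 14 counts in each library.

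Apart from Cttnbp2 and Pon3, the genes with a positive fold change were Col1a2, Cav1, Cped1, Thsd7a and Samd9l. Col1a2 (chr6:4505618-4541543), the second chain of type I collagen, had 50.01 and 31.2 CPM in WT and 56.9 and 36.0 CPM in G3 Terc-/- libraries. Cav1 (chr6:17306335-17341328), the coat protein of caveolae, had 14.0 and 9.97 CPM in WT and 16.1 and 11.9 CPM in G3 Terc-/- libraries. In both genes the groups overlapped, and the first library of each genotype was higher than the second. Compared by replicate number, the G3 Terc-/- library was above the WT library in both genes. With the replicate number as a block, Col1a2 was at 0.20 and was called higher. The log2 fold changes of Col1a2 and Cav1, 0.21 ± 0.13 and 0.24 ± 0.13 (SE), changed with the libraries compared. That of Col1a2 was -0.10 without the second WT library and -0.17 without the first G3 Terc-/- library. That of Cav1 was 0.50 without the first WT library and 0.02 without the second. It was 2.1e-05 without the first G3 Terc-/- library and 0.43 without the second. Cav2, the partner of Cav1 that lies beside it, had 41 and 42 counts in WT against 26 and 14 in the G3 Terc-/- libraries, without overlap and with a log2 fold change of -0.93 ± 0.33. Cped1 had 16 and 13 counts in WT against 28 and 13 in the G3 Terc-/- libraries, and Thsd7a had 16 and 8 against 25 and 9, also with overlap. Samd9l, an interferon-induced gene, was the only one above WT in both G3 Terc-/- libraries. It had 2.15 and 1.94 CPM in WT and 2.48 and 3.51 CPM in G3 Terc-/- libraries. Its log2 fold change of 0.53 was 0.78 without the first G3 Terc-/- library and 0.28 without the second.

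The summed level of 18 fibroblast markers, listed because the cultures held feeder cells, had the same order of libraries within each genotype. It was 417 and 283 CPM in WT and 473 and 338 CPM in G3 Terc-/- libraries, with Tagln the most abundant in WT and no marker at 0 in any library. Of the 18, 16 were higher in the first library than in the second in both genotypes, and Dcn and Fap were not. Of the 15 that were tested and lie on other chromosomes, 6 were higher and 1 was lower at an adjusted p-value under 0.05 in edgeR. The shares of all tested genes were 21.7% higher and 21.8% lower. The median log2 fold change of the 15 was 0.37, and DESeq2 called 1 higher and none lower. As a share of the summed markers, Col1a2 was 12% and 11% in WT against 12% and 10.7% in the G3 Terc-/- libraries, and Cav1 was 3.35% and 3.52% in WT against 3.40% and 3.54% in the G3 Terc-/- libraries. Per Col1a1, the other chain of the same collagen, Col1a2 had 0.825 and 0.878 in WT against 0.891 and 0.837 in the G3 Terc-/- libraries. Relative to this sum, the levels of Col1a2 and Cav1 thus differed little between genotypes. The shares depend on the markers summed: Tagln, the most abundant in WT, had a log2 fold change of -0.25, against the median of 0.37. The marker sum also holds Fbln2, which lies on chromosome 6 and had a log2 fold change of 0.56. In both genotypes, the first library exceeded the second by over 0.25 on the log2 scale for 5 genes of the interval (10.6%), Col1a2, Cav1, Cped1, Thsd7a and Iqub, and for 3.69% of all tested genes. The positive genes Cttnbp2, Pon3 and Samd9l did not have this order: the first library was lower than the second by 1.42 in WT for Cttnbp2, and by 1.13 and 0.50 in G3 Terc-/- cells for Pon3 and Samd9l. The part of feeder RNA in these values was not tested.

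**Figure D3:**
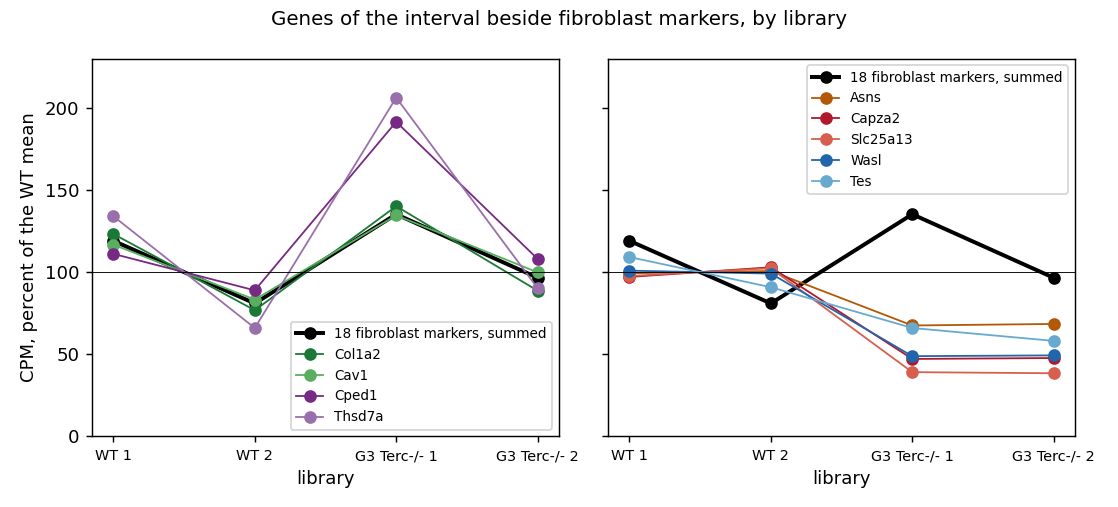
CPM in each of the 4 libraries as percent of the mean of the 2 WT libraries, for the sum of 18 fibroblast markers (black) with Col1a2, Cav1, Cped1 and Thsd7a (left) and with Asns, Capza2, Slc25a13, Wasl and Tes (right). The genes on the left were chosen for having the order of the markers, which Cttnbp2, Pon3 and Samd9l did not have, and on the right they differ between the genotypes and are nearly level between replicates, with Tes sloping slightly.

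Markers of other cell types that ESC cultures can hold were examined as well. The 9 genes of primitive endoderm summed to 59.9 and 52.1 CPM in WT and to 32.2 and 25.8 CPM in G3 Terc-/- libraries, with Cubn the most abundant in WT. Of them 4 fell and none rose at an adjusted p-value under 0.05, and none rose at an unadjusted P under 0.05 or in DESeq2. The 8 genes of trophectoderm summed to 330.3 and 322 CPM in WT and to 202 and 199.5 CPM in G3 Terc-/- libraries, with Tfap2c the most abundant in WT and Elf5 at 0 to 5 counts in each library. Of the 7 that were tested, 5 fell and 1, Eomes, rose, with a log2 fold change of 1.63. DESeq2 called 4 of the trophectoderm genes lower and 1 higher. Beside the counts of both lists, 21.8% of all tested genes fell and 21.7% rose at an adjusted p-value under 0.05 in edgeR. The summed levels of both lists were lower in G3 Terc-/- cells, as was that of the interval, and their part in the interval's level was not tested.

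Many genes of the interval encode 1 part of a complex or pathway, and 18 lists were examined for their partners. The list of the paraoxonases held no partner outside the interval. Of 141 partners, 136 entered the fit, and 7 of these lie elsewhere on chromosome 6, where stretches were set by their fold changes in this contrast, so those 7 are given as values with no p. Of the 129 on other chromosomes, 39 fell (30.2%) and 16 rose (12.4%) at an adjusted p-value under 0.05 in edgeR's quasi-likelihood test. Over all tested genes these shares were 21.8% and 21.7%, which is not matched for depth. The share of tested genes that fell was 28.5% where counts averaged 500 and up. It was 8.94% where they averaged 10 to under 50. The share that rose was not split by depth. The median log2 fold change of the 129 partners was -0.05, and Trib3 alone fell by more than 2 fold at an unadjusted P under 0.05. With the 7 included, the counts were 41 and 18.

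**Figure D4:**
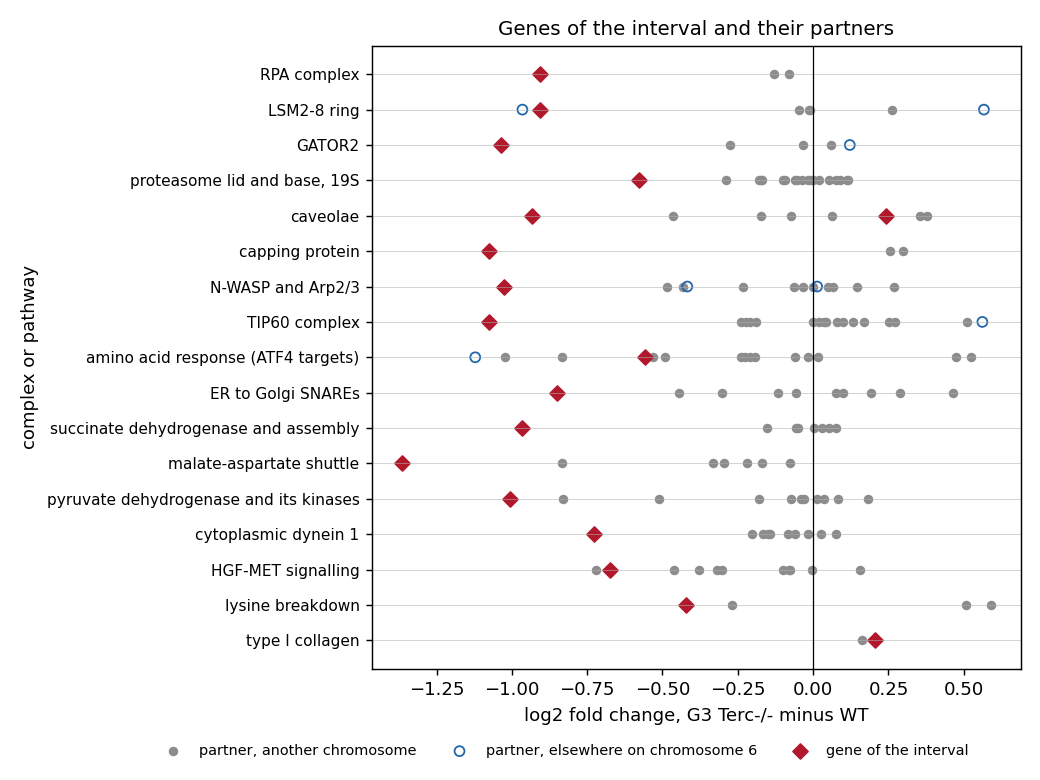
Log2 fold change, G3 Terc-/- minus WT, of the genes of the interval (red diamonds) and of their tested partners on other chromosomes (grey) and elsewhere on chromosome 6 (blue circles), for 17 complexes or pathways. Most grey points lie near 0, and the diamonds lie between -0.42 and -1.37 except Cav1 and Col1a2. The interval was drawn on this contrast, so nothing is read from the distance between diamonds and grey points.

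Partners in stable complexes are given first. Rpa1 and Rpa2, the other subunits of replication protein A, had log2 fold changes of -0.08 ± 0.05 (SE) and -0.13 ± 0.06, with edgeR adjusted p-values of 0.184 and 0.0554. Rpa2 passed with DESeq2's size factors (-0.13), with no filter (-0.14) and without the first G3 Terc-/- library (-0.17). Of the 4 partners of Mios in GATOR2, Seh1l fell (-0.28, adjusted p = 4.46e-05), and Sec13, on chromosome 6, had 0.12. Among 18 partners of Sem1 in the proteasome, 4 fell, Psmd7 by 0.29 on the log2 scale (adjusted p = 7.15e-06) and Psmd3 by 0.17 (adjusted p = 0.00424), and the median of the 18 was -0.03. Psmd3 did not pass with either WT library left out (-0.15 without the first and -0.19 without the second). In the LSM ring, Lsm6 rose by 0.26 (adjusted p = 0.00125), and the 2 partners on chromosome 6, Lsm3 and Lsm5, had values of 0.57 and -0.96. Of 7 tested partners of Sdhaf3, Sdhd alone passed, at -0.15 (adjusted p = 0.0199), and DESeq2 called none of them. Sdhd did not pass without the first WT library (-0.14), the second (-0.16) or the first G3 Terc-/- library (-0.11). None of the 6 tested partners of the caveolins passed, with Ehd2 at 0.38 and Cavin1 at -0.17 the only ones with an unadjusted P under 0.05, and DESeq2 called none. Both passed with no filter (0.36 and -0.19). Ehd2 was at 0.77 without the first WT library and at 0.07 without the second. It was at 0.44 without the first G3 Terc-/- library and at 0.32 without the second. Cavin1 was at -0.32 without the second WT library and at -0.24 without the first G3 Terc-/- library.

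Capping protein is a dimer of an alpha and a beta chain. Capza1, another alpha chain, rose by 0.26 (edgeR adjusted p = 0.000141). It had 124 and 128 CPM in WT and 148 and 152 CPM in G3 Terc-/- libraries. The beta chain Capzb rose by 0.30 (adjusted p = 5.33e-06), from 181 CPM in both WT libraries to 223 and 222 CPM. Both genes were higher in each G3 Terc-/- library than in each WT library, while Capza2 was lower in each. In the list of N-WASP and the Arp2/3 complex, 3 of the 10 partners on other chromosomes fell and 1 rose. Actr2, a core subunit, was at -0.48 (adjusted p = 8.22e-11) and Wipf2, a partner of N-WASP, at -0.43 (adjusted p = 1.58e-06). Around Ing3 in the TIP60 complex, 5 of the 15 partners on other chromosomes rose and 4 fell in edgeR. In the whole list, with chromosome 6 included, DESeq2 called 5 higher and 2 lower. The scaffold Epc2 rose by 0.51 (adjusted p = 2.98e-09), and the helicase Ruvbl1, on chromosome 6, had 0.56.

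Several metabolic partners fell. Of 14 genes of the amino acid response on other chromosomes, the programme of the factor ATF4 to which Asns belongs, 8 fell and 2 rose. Atf4 itself had 474 and 462 CPM in WT and 316 and 322 CPM in G3 Terc-/- libraries, a log2 fold change of -0.55 (edgeR adjusted p = 8.65e-13) beside -0.56 for Asns. Trib3, a target that feeds back on ATF4, was at -1.02 (adjusted p = 2.36e-14). The glycyl-tRNA synthetase Gars, on chromosome 6 in the stretch from 45 to 80 Mb, was at -1.12 and is not counted here. Sesn2, another target, rose by 0.48 (adjusted p = 1.48e-09), so the list did not move one way. In the malate-aspartate shuttle, 4 of the 6 partners of Slc25a13 fell and all 6 had negative values. They included Slc25a12, the other aspartate carrier, with 51.6 and 51.1 CPM in WT and 29.4 and 28.2 CPM in G3 Terc-/- libraries (-0.83, adjusted p = 1.28e-12), and Got2 (-0.33, adjusted p = 4.13e-07). Beside Pdk4, Pdk1 (-0.83, adjusted p = 1.74e-17) and Pdhb (-0.51, adjusted p = 5.55e-11) were among the 3 of 10 partners that fell. In lysine breakdown, Dhtkd1 (0.59, adjusted p = 5.42e-07) and Gcdh (0.51, adjusted p = 5.67e-08) rose and Aldh7a1 fell.

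The remaining lists concern signalling, transport and collagen. Their counts stand beside the same shares of all tested genes, 21.8% lower and 21.7% higher, again not matched for depth. Of 10 tested partners of Met, 5 fell, with the smallest p-values in the docking protein Gab1 (-0.72, edgeR adjusted p = 1.27e-15) and the protease St14 (-0.38, adjusted p = 3.27e-06), while none rose, Pik3ca at 0.16 being the only one higher at an unadjusted P under 0.05, and DESeq2 called none higher. Of 9 SNARE genes listed with Bet1, 2 fell and 3 rose in edgeR, while DESeq2 called 1 lower and 1 higher. Ykt6 was at -0.44 (adjusted p = 3.28e-08), and Bet1l, the closest relative of Bet1, was at 0.46 (adjusted p = 0.00069). Of 9 tested genes of cytoplasmic dynein, 3 fell by small amounts, among them Dynll2 by 0.20 (adjusted p = 0.0021) and Dync1h1 by 0.16 (adjusted p = 0.0103). Dynll2 did not pass without the second WT library (-0.15), nor Dync1h1 without the first WT library (-0.08) or the second G3 Terc-/- library (-0.09). Col1a1, the partner of Col1a2, had 60.6 and 35.5 CPM in WT and 63.8 and 43.0 CPM in G3 Terc-/- libraries, with an adjusted p of 0.304, and showed the same overlap of groups as Col1a2. It was positive without the first WT library (0.60) and without the second G3 Terc-/- library (0.41), and negative without either of the others (-0.17 and -0.16). With the replicate number as a block, Col1a1 was called higher.

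Reads of neighbouring genes could enter some of these values. Exons of 8 genes of the interval overlap a gene on the opposite strand, by 16.1% of the exon bases in Glcci1, 13.7% in Cped1 and 9.27% in Pon2, and by less in Cttnbp2, St7, Tspan12, Umad1 and Tes. The strand setting of the counting is not given in the sources used here, so reads of such partners cannot be told apart. Glcci1 also shares 69.8% of its exon bases with an annotated gene on the same strand.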

How the data were processed

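Gene counts were deposited as raw counts without normalization. Per the labels, poly(A) RNA was sequenced, and the submitters' processing notes name Trim Galore, STAR, featureCounts and mm10; versions and the strand setting are not given in the sources used here. Of 24116 NCBI gene identifiers, 24061 matched RefSeq GRCm38.p6, which gave symbols and positions, and GENCODE M21 gave exon lengths. Deposited counts of repeat copies were not used here.

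Fold changes came from edgeR 4.0.16 in R 4.3.3 (filterByExpr, TMM, quasi-likelihood test on all 4 libraries with genotype alone in the design), with Benjamini-Hochberg adjustment over 14896 genes. SE was the absolute log2 fold change divided by the square root of F. CPM used TMM library sizes. Alternatives were DESeq2 1.42.0, its size factors, scaling without chromosome 6, other filters, the replicate number as a block, and each library left out. Figures used matplotlib 3.10.9.

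The genes, the partner and marker lists and the tests were chosen with earlier results of these data known. The text names genes with at least 500 counts, the lowest 5 and the positive ones with at least 50 counts, genes with listed partners, those at the borders, up to 2 partners a list with the smallest p, partners past a fold change of 2, and Terc; others were added to account for all 47. P-values measure only the spread between these libraries, which the study's methods call biological replicates while the labels do not say whether they came from separate cultures. With 2 libraries against 2, an exact permutation test of a single value reaches 0.333 at best. Within each genotype, the replicates differed beyond sampling noise (chi-square per gene 2.41 in WT and 3.60 in G3 Terc-/-).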

Additional observations from a re-analysis of the deposited data

How the results depend on the processing

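The median log2 fold change of the 46 genes (-0.88) was between -0.88 and -0.91 under other tools, scalings, filters and memberships, or -0.87 for protein-coding genes, and lay between -0.89 and -0.79 with 1 library left out, where -0.79 was without the first G3 Terc-/- library. The count of genes lower at a fold change of 2 (15) ranged from 10 to 17 and that at an adjusted p under 0.05 (34) from 27 to 34. As the interval was drawn on this contrast, these ranges and the calls of single genes of the interval below describe the settings and say nothing of how stable a test result is. The deviations of the first library from its group mean correlated weakly between the genotypes (0.0617 over 14896 genes). This does not show that the replicate numbers share nothing. Of 18 fibroblast markers, 16 were higher in the first library than in the second in both genotypes. A replicate block gave a median of -0.88, counts of 14 and 33, and 45 partners lower and 25 higher. The partner counts in this paragraph include the 7 on chromosome 6. Other settings gave 30 to 44 partners lower, against 41, and 12 to 21 higher, against 18, apart from the block. No gene of the interval was called higher as reported, and 1 was with no filter or with the block (Col1a2, 0.19 and 0.20), and up to 2 with a library left out.

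Of 446 values of single genes under the alternatives, 405 kept direction and call. Another 23 values of 7 genes (Umad1, Glcci1, Gpr85, Mdfic, Cav2, Tspan12, Cadps2) lost the call, 8 gained one, and 10 values of 6 genes changed sign, each with 1 library left out. Without the first WT library these were Gng11 (0.33), Cttnbp2 (-0.27) and Iqub (0.56). Without the second WT library they were Col1a2 (-0.10), Pon3 (-0.16) and, among partners, Col1a1 (-0.17). Without the first G3 Terc-/- library they were Gng11 (0.53), Col1a2 (-0.17), Thsd7a (-0.14) and Col1a1 (-0.16), and without the second Pon3 (-0.44) and Iqub (0.40). Over the 4 libraries left out in turn, Gng11 ranged from -1.09 to 0.53, Col1a2 from -0.17 to 0.59, Pon3 from -0.44 to 0.68, Thsd7a from -0.14 to 1.20, Cttnbp2 from -0.27 to 1.14, Iqub from -0.79 to 0.56 and Col1a1 from -0.17 to 0.60. Without a change of sign, Cav1 ranged from 2.1e-05 to 0.50 and Cped1 from 0.11 to 0.94. Samd9l ranged from 0.28 to 0.78 and Aass from -0.76 to -0.10. With a library left out, the lone library of a genotype is assumed to vary like the other pair, and the cause of these changes was not tested. Of 350 values of 35 named partners, 322 kept direction and call, 9 lost it and 17 gained it. The replicate block added calls for Rpa2 (-0.13), Ehd2 (0.38), Cavin1 (-0.18) and Col1a1 (0.16). Sec13, on chromosome 6, had 0.12 with the block and is given as a value only. Depth limited the 14 genes with under 50 counts, whose median SE was 0.42.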
